A study of Mus musculus with 12 samples.

Results

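Cardiomyocytes of control mice were sequenced in 2 sets, and the control libraries of the first set were compared with those labelled 3M. The comparison used 6 of the series' 12 libraries, 3 labelled Ctrl and 3 labelled Ctrl 3M, joined by gene symbol. A gene was followed if its mean reached 20 CPM (counts per 1000000 counts of a library) in at least 1 of the 2 groups, which held for 9125 of the 25239 symbols. Of these, 1384 reached the minimum only in Ctrl, 1824 only in Ctrl 3M and 5917 in both. Just inside it stood Iqce, at a mean of 20.02 CPM in its higher group, and just outside stood Pcdhga1, at 19.996 CPM.

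In the series, mice that lose Chaf1a, a subunit of the histone chaperone that loads nucleosomes onto newly copied DNA, through a Cre driven by the Myh6 promoter in cardiomyocytes are set against mice without that Cre. The controls of both sets carry the same floxed Chaf1a allele (Chaf1a f/f), and the labels give their genotype as WT. The labels name heart as the tissue and cardiomyocytes as the cell type, give total RNA from cultured cells, and place every library in batch 1. They give no age for the first set, do not spell out 3M, and do not say whether libraries came from separate animals or cultures, so a p-value here speaks of the scatter among these libraries, part of which may be technical. Set, table and stage coincide here and cannot be told apart.

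Rodent cardiomyocytes stop dividing soon after birth and then mature. They exchange early isoforms of contractile and metabolic proteins for adult ones, shift from glucose and lactate towards fatty acids as fuel, and extend their T-tubules and sarcoplasmic reticulum. Myosin heavy chain and troponin I are the textbook switches: Myh7 gives way to Myh6, and the slow skeletal form Tnni1 gives way to the cardiac form Tnni3.

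The libraries of the 2 sets stood apart in several kinds of RNA, and the 3M controls varied more. Counts were found for 94.8% to 97.8% of 1500 chemoreceptor genes, which heart should not express, in each Ctrl library and for 1.13% to 1.53% in each Ctrl 3M library. The 64 replication-dependent histone genes, whose messages lack a poly(A) tail, summed to 1330 to 1346 CPM in Ctrl and 191 to 234 CPM in Ctrl 3M. Small noncoding RNA genes summed to 5252 to 5857 CPM against 33.3 to 46.3 CPM. Y-linked genes summed to 50.7 to 60.6 CPM in Ctrl and 404 to 644 CPM in Ctrl 3M, while Xist, the RNA that silences an X chromosome in females, stood at 294 to 630 CPM and 0 to 0.304 CPM, so markers of sex also differed between the sets. The median coefficient of variation between replicates was 5.44% over the 3383 genes that averaged more than 1000 counts in Ctrl and 19.6% over 3159 such genes in Ctrl 3M. The part of each of these in the results was not tested.

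Across the 9125 genes, 1056 were called higher in Ctrl 3M (11.6%) and 940 lower (10.3%). A call needed an adjusted p under 0.05 in edgeR's quasi-likelihood test and a fold of at least 4, a log2 fold change of 2. The fold rule was needed: with the adjusted p alone, 15288 of the 21286 genes tested (71.8%) would pass. The 2 groups did not overlap in 6998 of the 9125 genes (76.7%) and in 1984 of the 1996 called. The median log2 fold change was 0.27, and it was 0.17 with DESeq2 size factors and 0.40 with library size alone, so folds near these values say little.

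Fold change followed exon length. In the bin of genes with up to 1 kb of exon the median log2 fold change was 1.59 over 174 genes, it was 0.00 over 1425 genes of 6 to 8 kb, and in genes above 12 kb it was -1.18 over 720 genes. Of the shortest genes 36.2% were called higher, and of the longest 30% were called lower. The Chaf1a cko libraries gave medians of 1.32 and -1.03 at the same 2 ends. Each gene's fold change was therefore also centred on the running median of the genes nearest to it in exon length, a step chosen after this trend was seen. After centring, 620 of 9004 genes (6.89%) were called higher and 932 (10.4%) lower, and 538 higher and 742 lower calls were made both ways. The number of higher calls shrank and that of lower calls did not, so list counts are given both ways below where they differ. The shares to set beside every list are 11.6% higher and 10.3% lower as counted, and 6.89% and 10.4% after centring. Counts near these shares say little about a list.

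**Figure D1:**
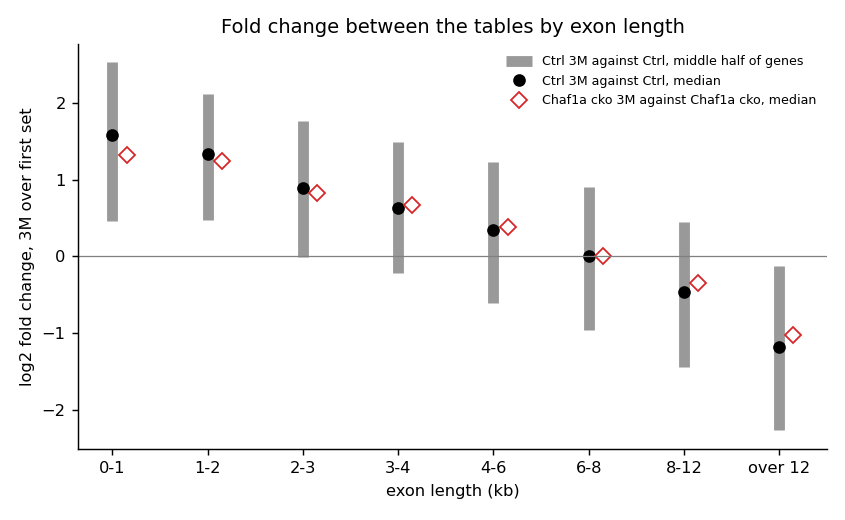
Median log2 fold change of 3M over the first set (vertical axis) against exon length in kb (horizontal axis) for the control libraries (black points, with grey bars from the lower to the upper quartile of genes) and the Chaf1a cko libraries (red diamonds). Medians fall from 1.59 in the shortest bin to -1.18 in the longest for controls, and from 1.32 to -1.03 for Chaf1a cko.

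The early and atrial forms of 3 sarcomere proteins were nearly absent from the 3M controls, and their adult partners were not. Tnni1, slow skeletal troponin I, was at 530, 495 and 512 CPM in the Ctrl libraries and at 0.357, 2.49 and 0 CPM in the 3M libraries, called a, b and c in the order of the numbers in their column headers. That is a log2 fold change of -8.94 ± 1.04 (SE, n = 3 libraries a group, edgeR quasi-likelihood adjusted p = 0.000529). Tnni3, the adult inhibitory subunit of the troponin complex, was at 1243, 1232 and 1314 CPM against 2300, 2449 and 3431 CPM, with no overlap but a fold of 2.16, under the rule for a call. The log2 ratio of Tnni3 to Tnni1 counts within a library was 1.30 ± 0.07 (SD, n = 3) in Ctrl and 12.96 ± 3.30 (SD, n = 3) in Ctrl 3M.

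Light chains did the same. Myl4, the atrial and fetal essential light chain, fell from 354, 352 and 347 CPM to 5.62, 0.397 and 4.17 CPM (log2 fold change -6.73 ± 0.83 (SE), edgeR quasi-likelihood adjusted p = 0.000578). Its ventricular partner Myl3 was at 1935, 1881 and 1898 CPM and at 1661, 1500 and 3224 CPM, and these groups overlapped. Myl7, the atrial regulatory light chain, fell from 114, 105 and 95.8 CPM to 0, 0 and 0.379 CPM. Myl2, its ventricular partner, stood at 2372 ± 40.8 CPM (SD, n = 3) in Ctrl and 4258 ± 1543 CPM (SD, n = 3) in Ctrl 3M. The 3M ratios of Tnni3 to Tnni1 and of Myl2 to Myl7 rest in part on the 0.5 added to each count, because the early member was at 0 in at least 1 library.

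Myosin heavy chain moved by less. Myh7, the slow beta chain, was at 16691, 16168 and 15838 CPM in Ctrl and 1124, 851 and 1383 CPM in Ctrl 3M, which is 14.5-fold lower (log2 fold change -3.86 ± 0.21 (SE), edgeR quasi-likelihood adjusted p = 6.98e-05). Myh6, the fast alpha chain, was at 41984, 42565 and 42307 CPM and at 12607, 17319 and 16412 CPM, so its level was lower as well, by a log2 value of -1.45 that missed the 4-fold rule. The 2 genes lie beside each other on mouse chromosome 14 (Myh6 at chr14:54941921-54968017 and Myh7 at chr14:54970684-54994626, GRCm38.p6). Within a library, the log2 ratio of Myh6 to Myh7 was 1.33, 1.40 and 1.42 in Ctrl and 3.49, 4.35 and 3.57 in Ctrl 3M. The ratio therefore moved 5.35-fold to Myh6 although both levels were lower.

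Of 37 pairs of an early and a late family member, 17 moved to the late member, 4 to the early one and 16 did neither. A pair counted when the ranges of its log2 ratio did not overlap and the means differed by at least 1. The single-gene background for groups that do not overlap, with no rule on size, is 76.7%, so the size of a shift says more than its separation. How many pairs of unrelated genes would meet the same rule was not computed, so the counts of pairs only describe those listed. With 3 libraries against 3, an exact two-sided permutation test cannot go below p = 0.1, the value for each of the 21 pairs, and it is 0.148 after Benjamini-Hochberg adjustment over the 37 pairs. Centring by exon length left 14 of the 17 shifts to late and all 4 to early, and made 15 and 5 in all. Pfkm over Pfkp, the muscle and platelet phosphofructokinases, moved by 1.48 as counted and by -0.21 after centring, and Hk2 over Hk1 and Eno3 over Eno1 dropped to 0.40 and 0.71.

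**Figure D2:**
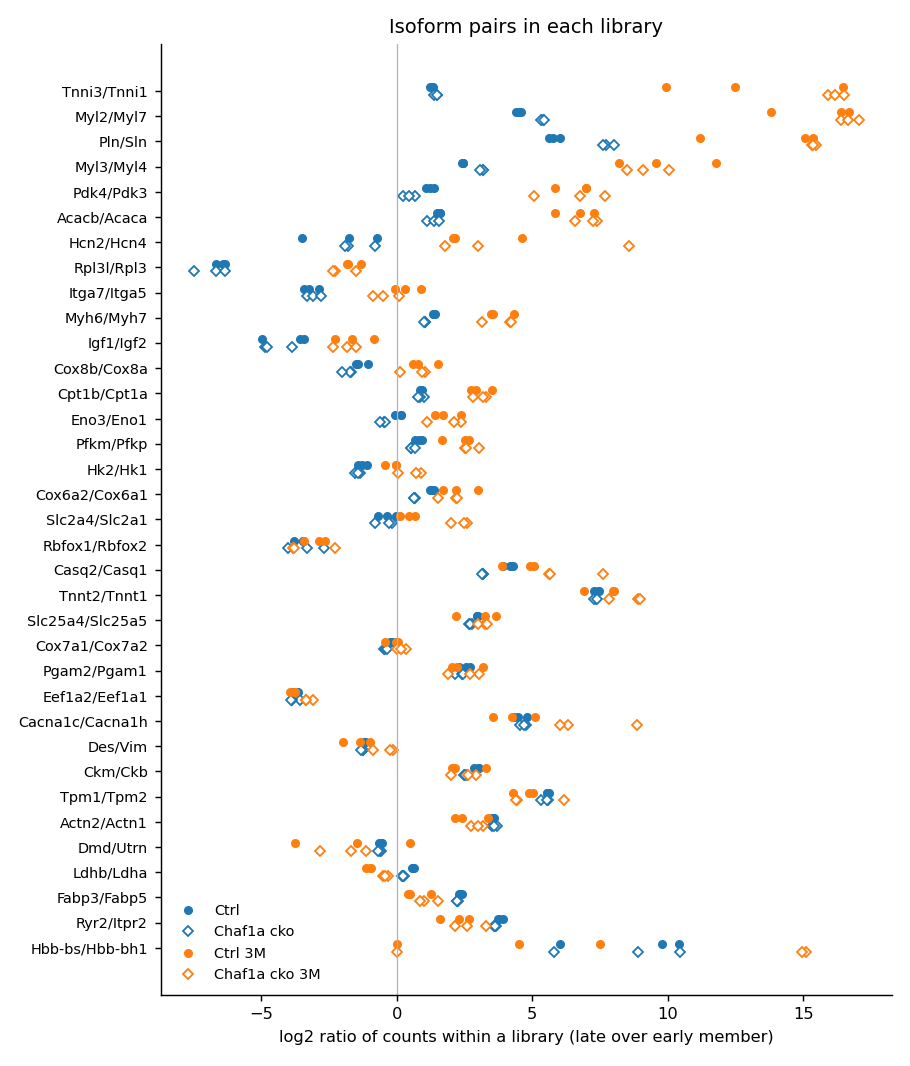
Log2 ratio of counts of the late to the early member (horizontal axis) for the pairs reported (vertical axis) in each library: filled circles for control and open diamonds for Chaf1a cko libraries, blue for the first set and orange for 3M. Tnni3/Tnni1 runs from 1.23 to 1.36 in Ctrl and from 9.92 to 16.47 in Ctrl 3M, and Ldhb/Ldha runs the other way, from between 0.55 and 0.64 down to between -1.13 and -0.96.

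Among the pairs that went to the early member were 3 of metabolism and calcium release. Ryr2 over Itpr2, the main calcium release channel over an inositol trisphosphate receptor, moved by -1.63. Ldhb over Ldha, the lactate dehydrogenase subunits, moved by -1.62, and Fabp3 over Fabp5, fatty acid carriers, by -1.63.

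Among 28 genes of the sarcomere and Z-disc, 3 were called higher and 3 lower, and 4 and 4 after centring. As counted, both are near the shares of 11.6% and 10.3% over all genes. The median log2 fold change was -0.45 beside 0.27 over all genes. Tcap, which caps titin at the Z-disc, rose from 60.1, 57.1 and 51.6 CPM to 1695, 1258 and 2230 CPM, a log2 fold change of 4.94 ± 0.26 (SE) and of 3.42 after centring (edgeR quasi-likelihood adjusted p = 6.84e-05). Xirp2, an actin-binding protein of the intercalated disc, rose from 39.8, 63.9 and 70.9 CPM to 686, 182 and 358 CPM. Ttn, the giant spring of the sarcomere, fell from 38322, 37668 and 37314 CPM to 4298, 3508 and 1169 CPM, by 3.66 on the log2 scale and by 2.40 after centring. Ttn has the longest message in the genome, and centring removed part of its change. In the list of 16 early and atrial sarcomere isoforms, 4 were called lower and 1 higher, and 7 and 0 after centring, where the median went from -0.42 to -1.29. Beside Tnni1, Myl4 and Myl7, the lower calls as counted held Myh8, a perinatal skeletal myosin, at 30.1, 26 and 26.1 CPM against 0, 0.68 and 0 CPM.

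Of 23 genes of calcium cycling and the T-tubule, 2 were called higher and 2 lower, and 1 and 5 after centring. As counted, neither exceeds the shares of 11.6% and 10.3% over all genes. Ryr2 fell from 3583, 3390 and 3342 CPM to 235, 252 and 322 CPM. Slc8a1, the sodium-calcium exchanger, fell from 1270, 919 and 870 CPM to 95.9, 45.7 and 43.5 CPM (log2 fold change -4.05 ± 0.38 (SE), edgeR quasi-likelihood adjusted p = 0.000288). Dmpk, a kinase of muscle membranes, rose 7.05-fold, and S100a1, a calcium sensor that binds Ryr2, rose 5.73-fold but only by 1.01 on the log2 scale after centring. Pln, the inhibitor of the calcium pump, was at 666, 675 and 674 CPM and then 1780, 1202 and 1290 CPM, without overlap and under the 4-fold rule. Its log2 ratio to Sln, the atrial and skeletal counterpart, went from 5.81 ± 0.20 (SD, n = 3) to 13.87 ± 2.32 (SD, n = 3). Sln lay below the 20 CPM minimum in both groups and had 8 counts in all over the 3M controls, so this 3M ratio is set mainly by the 0.5 added and its size should not be read.

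Of 22 genes for sodium, potassium and pacemaker currents, 3 were called higher and 4 lower, and 2 and 6 after centring. The shares over all genes are 11.6% and 10.3%, and 6.89% and 10.4% after centring. Kcne1, the beta subunit of the slow delayed rectifier, fell from 30.7, 40.3 and 33 CPM to 0.357, 0.283 and 0.91 CPM (log2 fold change -6.07 ± 0.44 (SE), edgeR quasi-likelihood adjusted p = 0.000128). The higher calls included Kcnip2, the auxiliary subunit of the transient outward current, and Kcna5, the channel of the ultrarapid current. Kcnip2 went from 26.8, 20.2 and 25.9 CPM to 46.1, 209 and 266 CPM, so 3M library a stood well below its partners. Kcna5 went from 27.9, 26.4 and 29.1 CPM to 193, 261 and 120 CPM, and was at 1.93 after centring. The pacemaker pair Hcn2 over Hcn4 moved from -1.9998 ± 1.39 to 2.95 ± 1.47 (SD, n = 3 each), with both genes below 20 CPM and Hcn4 at 0 in 3M library a, where the ratio rests on the 0.5 added.

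Several carriers and transporters of fatty acids rose. Of 38 genes of fatty acid uptake and oxidation, 8 were called higher and 1 lower, at a median of 0.74. After centring the counts were 6 and 4, at 0.25 beside 0 over all genes. Ucp3, a mitochondrial carrier of muscle, rose from 3.04, 4.13 and 4.58 CPM to 118, 89.3 and 156 CPM (log2 fold change 4.94 ± 0.29 (SE), edgeR quasi-likelihood adjusted p = 7.86e-05). Slc27a1, a fatty acid transporter, rose from 24.6, 20.5 and 20.6 CPM to 218, 206 and 277 CPM. Fabp4, a carrier that capillary endothelium also expresses, rose from 580, 525 and 540 CPM to 6684, 6060 and 4585 CPM. Acot2, a mitochondrial thioesterase, was the one that fell, from 74.3, 66.6 and 65.5 CPM to 12.3, 12.6 and 5.99 CPM. The site AAGGTCA of estrogen-related receptors, searched on both strands, lay within 250 bases before the start in 1 of 29 promoters of these genes (3.45%) and in 4.07% of 27025 RefSeq promoters.

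Isoforms at the control points of fatty acid and pyruvate use separated within libraries. Cpt1b, the muscle form of the enzyme that admits fatty acids to mitochondria, rose from 174, 159 and 191 CPM to 580, 691 and 983 CPM, by 2.10 on the log2 scale and by 1.54, short of the rule, after centring. Cpt1a, the liver form, stayed at 92.8 ± 7.77 CPM and 86.7 ± 2.73 CPM (SD, n = 3 each), and the groups overlapped. The log2 ratio of Cpt1b to Cpt1a went from 0.91 ± 0.04 to 3.08 ± 0.40 (SD, n = 3 each). Acacb, the acetyl-CoA carboxylase whose malonyl-CoA restrains Cpt1, was at 125, 140 and 142 CPM and then 310, 458 and 499 CPM. Acaca, which feeds fatty acid synthesis, fell from 41.8, 50.3 and 46.6 CPM to 1.96, 7.99 and 4.55 CPM. Their log2 ratio moved by 5.07 and by 4.21 after centring. Pdk4, a kinase that shuts pyruvate dehydrogenase, was at 118, 102 and 101 CPM and then 390, 93 and 199 CPM, with overlap. Pdk3, another of these kinases, fell from 49.8, 48.2 and 38.8 CPM to 3.03, 1.59 and 1.52 CPM, and the log2 ratio of Pdk4 to Pdk3 moved by 5.38.

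Of 44 respiratory chain genes, 9 were called higher and 0 lower at a median of 0.73, and 1 higher and 2 lower after centring at -0.31. Atp5e, a subunit of ATP synthase, was the 1 higher call after centring. It rose from 34.6, 31 and 34.5 CPM to 445, 355 and 672 CPM, by 3.88 on the log2 scale and 2.66 after centring. Ndufa4 rose from 43.6, 54.2 and 40.7 CPM to 447, 287 and 561 CPM, and was at 1.80 after centring. Isoforms of cytochrome c oxidase subunits were compared within libraries. Cox8b over Cox8a, the muscle over the widespread form, moved by 2.29, and by 2.34 after centring. Cox6a2 over Cox6a1 moved by 1.01, and Cox7a1 over Cox7a2 by 0.07 with overlap.

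Krebs cycle genes made 0 calls among 24, with a median of -0.64 and 4 lower calls after centring at a median of -1.26. Idh2, the mitochondrial NADP-linked isocitrate dehydrogenase and one of the most abundant, was at 1204 ± 29.8 and 437 ± 132 CPM (SD, n = 3 each). It passed the adjusted p of edgeR's quasi-likelihood test (0.000985) with a fold of 2.76, under the rule for a call. For the lists here, the shares over all genes are 11.6% higher and 10.3% lower, and 6.89% and 10.4% after centring. Glycolysis gave 2 higher calls among 23: Pfkfb2, the heart form of the enzyme that sets fructose 2,6-bisphosphate, rose 11.4-fold, and Pfkfb1 7.10-fold. Pfkfb1 averaged 3.70 CPM in Ctrl, and background reads estimated from chemoreceptor genes came to 60.9% of that level. After centring, glycolysis had 2 higher and 4 lower calls, and its median went from 0.23 to -0.49. The lower ones were the glucose transporter Slc2a1 (-2.11), the ATP-making kinase Pgk1 (-2.57), Ldhb (-2.71) and Bpgm (-2.36), named after their values were seen. Of 17 genes of ketone and branched-chain amino acid use, Acad8, of valine breakdown, rose 4.14-fold, a call lost without Ctrl library 3, at 1.96, or 3M library a, at 1.78, and after centring, at 1.53. Slc16a1, a lactate and ketone transporter, fell from 148, 150 and 150 CPM to 34.2, 33.1 and 32.4 CPM.

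**Figure D3:**
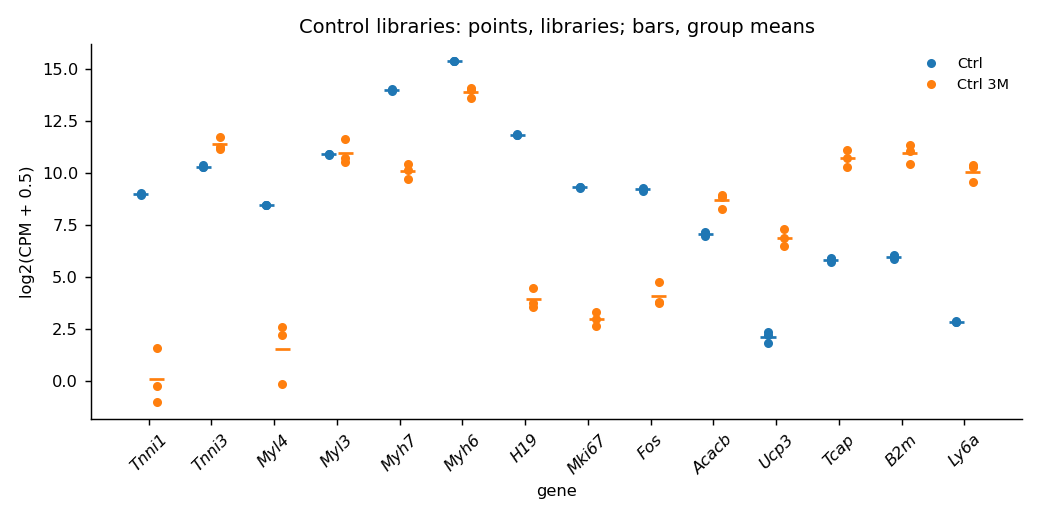
Level of 14 genes (horizontal axis) as log2(CPM + 0.5) (vertical axis) in each control library, with points for libraries and bars for group means, blue for Ctrl and orange for Ctrl 3M. The early isoforms Tnni1 and Myl4 drop from 512 and 351 CPM to under 6 CPM in every 3M library, whereas Tnni3 and Myl3 do not.

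Of 54 genes of G2 and mitosis measured, 41 reached the CPM minimum, most of them in Ctrl only, which favours lower calls. Of the 41, 37 were called lower and 0 higher, beside 10.3% and 11.6% over all genes. Their median log2 fold change was -4.37, and -4.30 after centring. Mki67, a protein that coats mitotic chromosomes, fell from 630, 642 and 639 CPM to 5.71, 7.37 and 9.56 CPM (log2 fold change -6.40 ± 0.24 (SE), edgeR quasi-likelihood adjusted p = 5.78e-05). Aspm, a spindle pole protein, fell from 97.4, 77.3 and 86.6 CPM to 0, 1.13 and 1.29 CPM. Ccnb1, the cyclin that starts mitosis, was at 20.5, 22.5 and 25.9 CPM and at 0 in all 3M libraries, at least 326-fold lower when 3 counts over the group are taken as the floor. Top2a, which untangles sister chromatids, fell from 159, 158 and 152 CPM to 0, 2.95 and 2.81 CPM, and Cdk1, the kinase of mitotic entry, from 38.4, 39.7 and 33.2 CPM to 3.21, 1.25 and 3.49 CPM. The 4 members not called were Cenpa, Anln, Ncapd2 and Pttg1. Anln, a scaffold of the cleavage furrow, had 34.6 CPM in 3M library a against 2.83 and 2.73 CPM in its partners.

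The promoters of these genes are shown because members of the list moved together. In dividing cells the short element TTTGAA near the start site, the cell cycle genes homology region, is known to keep such genes silent outside G2 and mitosis. It was searched on both strands in the 250 bases before each start in the RefSeq promoters of GRCm38.p6, and 14 of the 35 members with a promoter held it (40%), against 16.4% of 27025 promoters. Mki67 (chr7:135716380-135716629), Top2a (chr11:99024190-99024439) and Cdk1 (chr10:69352913-69353162) all lie on the minus strand and are written 5′ to 3′ with the matches in capitals, TTCAAA being the element on the other strand. They were chosen after their values were seen.
Mki67: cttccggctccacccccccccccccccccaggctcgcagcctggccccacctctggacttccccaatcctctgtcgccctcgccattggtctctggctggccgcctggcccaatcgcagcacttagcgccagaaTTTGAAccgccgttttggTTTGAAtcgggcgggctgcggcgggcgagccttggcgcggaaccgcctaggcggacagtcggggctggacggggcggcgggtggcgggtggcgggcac
Top2a: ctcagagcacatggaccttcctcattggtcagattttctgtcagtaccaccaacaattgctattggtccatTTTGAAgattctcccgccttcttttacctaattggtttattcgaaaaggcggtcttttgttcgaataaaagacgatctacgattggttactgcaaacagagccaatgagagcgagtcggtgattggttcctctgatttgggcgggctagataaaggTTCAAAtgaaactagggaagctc
Cdk1: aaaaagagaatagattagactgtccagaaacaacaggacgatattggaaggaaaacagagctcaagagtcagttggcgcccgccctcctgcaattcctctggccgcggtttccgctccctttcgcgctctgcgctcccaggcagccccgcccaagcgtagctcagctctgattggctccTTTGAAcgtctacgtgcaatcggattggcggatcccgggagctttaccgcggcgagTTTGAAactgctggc
The matches begin at bases -116 and -98 from the start in Mki67, -179 and -23 in Top2a, and -71 and -15 in Cdk1. A match is only a description of these letters.

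Of 45 genes of DNA replication measured, 19 reached the CPM minimum, most of them in Ctrl only, which favours lower calls. Of the 19, 5 were called lower and 0 higher, at a median of -1.50, and 7 and 0 after centring. Pole, the leading-strand polymerase, fell from 34.4, 36.7 and 30.3 CPM to 0, 2.1 and 3.56 CPM. Rrm2, a subunit of ribonucleotide reductase, fell from 39.1, 45.3 and 41.8 CPM to 2.86, 2.89 and 1.82 CPM. Uhrf1, which carries DNA methylation through replication, fell 7.04-fold. Chaf1a itself, floxed but not deleted in these mice, was at 23.5, 33.9 and 19.8 CPM and then 1.78, 4.54 and 9.25 CPM (log2 fold change -2.30 ± 0.56 (SE), edgeR quasi-likelihood adjusted p = 0.00853). That call was lost without 3M library a, at -1.81, and after centring, at -1.94.

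Of 32 fetal growth and imprinted genes measured, 26 reached the CPM minimum. Some of them, Dlk1, Igf2bp1 and Sox11 among them, reached it only in Ctrl, which favours lower calls. Of the 26, 16 were called lower and 1 higher at a median of -2.80 (15 and 1 after centring). Over all genes 10.3% were called lower and 11.6% higher as counted. H19, an imprinted noncoding RNA, fell from 3786, 3620 and 3571 CPM to 11.3, 21.8 and 13 CPM (log2 fold change -7.89 ± 0.33 (SE), edgeR quasi-likelihood adjusted p = 5.91e-05). Igf2, its neighbour and the fetal growth factor, fell from 2243, 1001 and 961 CPM to 99.6, 107 and 104 CPM, with Ctrl library 1 above its partners. Igf1, the growth factor of later life, was at 82.2 ± 11.2 and 36.8 ± 17 CPM (SD, n = 3 each), so the log2 ratio of Igf1 to Igf2 moved by 2.39 while both were lower. Igf2bp1, a fetal RNA-binding protein, and Dlk1, an imprinted inhibitor of differentiation, were at 43.3 ± 1.86 and 40.1 ± 7.16 CPM (SD, n = 3) in Ctrl and at 0 in all 3M libraries, at least 609-fold and 568-fold lower. Sox11, a fetal transcription factor, fell from 45.6, 46.5 and 48.6 CPM to 0, 0.51 and 0 CPM. The higher one was Dcn, a matrix proteoglycan.

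Cardiac transcription factors gave 10 lower calls and 1 higher among 36, at a median of -1.17, and 12 and 1 after centring. Myocd, the coactivator of serum response factor, fell from 190, 185 and 194 CPM to 7.32, 5.78 and 4.02 CPM (log2 fold change -5.05 ± 0.25 (SE), edgeR quasi-likelihood adjusted p = 6.35e-05). Tbx5 fell from 87.2, 76.2 and 72.2 CPM to 2.95, 8.73 and 4.85 CPM, and Tbx20 from 320, 342 and 334 CPM to 35.7, 14.3 and 22.4 CPM. Zfpm2, a partner of Gata4, fell 9.48-fold. The higher call was Esrra, an orphan receptor that drives mitochondrial genes, at 17.6, 16.2 and 15.7 CPM and then 106, 131.5 and 163 CPM, whereas its coactivator Ppargc1a went from 242, 221 and 217 CPM to 24.4, 28.1 and 36.2 CPM. Both were named after their values were seen.

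**Figure D4:**
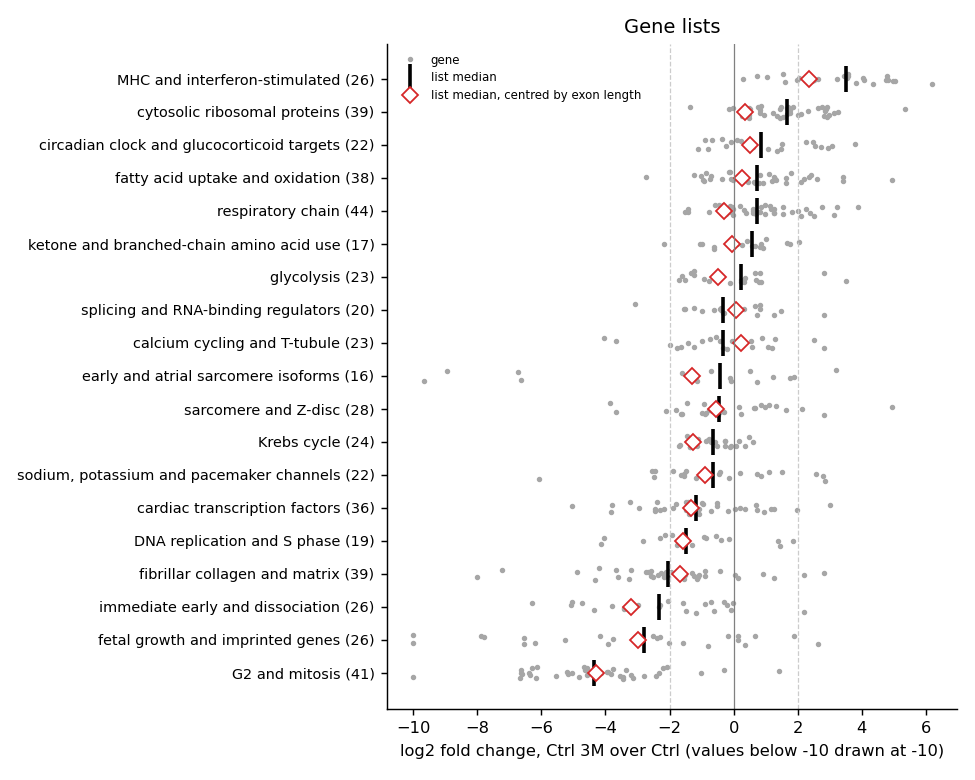
Log2 fold change of Ctrl 3M over Ctrl (horizontal axis) for the genes of 19 lists (vertical axis, number of genes in brackets), with grey points for genes, black bars for list medians and red diamonds for medians after centring by exon length. G2 and mitosis lies lowest at -4.37, and MHC and interferon-stimulated genes highest at 3.50, or 2.36 centred.

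Genes of antigen presentation and the interferon response held the most higher calls of any list, 20 of 26 with 0 lower, at a median of 3.50. After centring 16 were called higher and 0 lower, at a median of 2.36. Over all genes 11.6% were called higher as counted, and 6.89% after centring. Some members, Psmb9, H2-Aa and Ifi27 among them, reached the CPM minimum only in Ctrl 3M, which favours higher calls. B2m, the light chain of class I MHC, rose from 58.2, 63.2 and 67.3 CPM to 2639, 2121 and 1388 CPM (log2 fold change 5.03 ± 0.28 (SE), edgeR quasi-likelihood adjusted p = 7.34e-05). Psmb9, an immunoproteasome subunit, rose from 0.138, 1.19 and 0.895 CPM to 40.3, 68.2 and 59.3 CPM. H2-Aa, a class II chain of antigen-presenting cells, rose from 0.899, 0.489 and 0.696 CPM to 10.2, 29.1 and 26 CPM. Ifi27, an interferon-induced membrane protein, rose from 4.63, 4.94 and 3.23 CPM to 133.3, 119 and 109.5 CPM, and Isg15, a ubiquitin-like protein of the same response, from 1.94, 2.5 and 2.54 CPM to 33.2, 31.3 and 18.1 CPM. Class I and class II genes have near-identical copies whose reads the counting could split. Macrophage markers summed to 94.2 to 103 CPM and to 461 to 536 CPM beside these changes, and their part was not tested.

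The core of the interferon-stimulated response element, GAAA, 2 bases of any kind and GAAA, is bound by interferon regulatory factors. Over the same windows and both strands, 10 of the 21 members of this list with a promoter held it (47.6%), against 3.05% of 27025 promoters. The list holds interferon-stimulated genes by choice, so this excess says nothing of the change between the sets. B2m (chr2:122147437-122147686, plus strand) and Isg15 (chr4:156200819-156201068, minus strand) of GRCm38.p6 from RefSeq are shown as a class I and an interferon-stimulated member, with the matches in capitals.
B2m: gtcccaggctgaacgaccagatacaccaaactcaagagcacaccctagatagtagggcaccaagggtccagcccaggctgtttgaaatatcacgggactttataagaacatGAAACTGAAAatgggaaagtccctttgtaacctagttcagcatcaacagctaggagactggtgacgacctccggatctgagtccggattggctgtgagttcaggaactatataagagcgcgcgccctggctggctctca
Isg15: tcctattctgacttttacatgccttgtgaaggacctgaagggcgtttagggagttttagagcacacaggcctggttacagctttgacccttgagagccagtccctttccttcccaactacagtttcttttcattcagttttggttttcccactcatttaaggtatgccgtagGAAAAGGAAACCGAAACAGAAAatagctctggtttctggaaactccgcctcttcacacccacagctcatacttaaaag
The match in B2m begins at base -139. In Isg15 3 matches begin at -78, -72 and -66 and overlap in one run. Here too, a match is only a description of the letters.

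Matrix genes moved to the lower side, and markers of other cells in both directions. Of 39 genes of fibrillar collagen and matrix, 19 were called lower and 2 higher, at a median of -2.06, with 14 and 1 after centring. Fbn2, the fibrillin of fetal microfibrils, fell from 308, 301 and 296 CPM to 1.52, 0.737 and 1.29 CPM (log2 fold change -8.02 ± 0.29 (SE), edgeR quasi-likelihood adjusted p = 5.78e-05). Col1a1, the main chain of type I collagen, fell from 1148, 1139 and 1182 CPM to 69.2, 50.5 and 54.6 CPM. Col11a1 fell 150-fold and Col12a1 29.8-fold. Lum, a small proteoglycan of fibroblasts, rose from 29.2, 23.9 and 25.3 CPM to 299, 71 and 185 CPM, and was at 1.95 after centring.

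Cardiomyocyte markers were abundant in both groups, which does not show how pure the cells were. The 10 cardiomyocyte markers summed to 98764 to 100107 CPM of the library total in Ctrl and to 32267 to 41501 CPM in Ctrl 3M, and all 10 passed the CPM minimum. Of these, 3 were called lower, Ttn and Ryr2 among them, and 4 after centring. Myh6, at means of 42285 and 15446 CPM, and Ttn, at 37768 and 2992 CPM, made most of the fall in the sum. Tnni3, Myl2 and Pln stood higher in Ctrl 3M without a call. The median log2 fold change of these cardiomyocyte markers was -1.19. Endothelial markers summed to 3346 to 3529 CPM and 8548 to 11552 CPM, where Fabp4 and Egfl7 were the 2 of 10 called higher. Fabp4, counted among the fatty acid genes as well, had means of 548 and 5776 CPM and made most of that rise. The median log2 fold change of the 10 was 0.69. Pecam1, a junction protein of endothelium, was at 490 ± 25.2 and 539 ± 140 CPM (SD, n = 3 each). Fibroblast markers summed to 3346 to 3407 CPM and 2104 to 2893 CPM, with Dcn, Lum and Mfap5 called higher and the 3 collagen genes lower. After centring 2 were called higher and 1 lower, as Lum (1.95), Col1a2 (-1.63) and Col3a1 (-1.80) missed the rule. Of 10 macrophage markers measured, 7 reached the CPM minimum. Of the 7, 4 were called higher and 0 lower, and 3 and 0 after centring. The 4 called (Lyz2, C1qa, C1qb and C1qc) reached the minimum only in Ctrl 3M, which favours higher calls. Lyz2 rose from 9.54, 6.19 and 6.81 CPM to 142, 133.6 and 105 CPM. Mural markers gave 1 higher call of 9 (Rgs5, at 2.13), but 0 higher and 1 lower after centring, with Rgs5 at 1.66. Nerve markers gave 1 higher call (Cdh19) and 1 lower (Ncam1) of 3, adipocyte markers 1 higher of 1 (Lpl) and epicardial markers 0 of 1, and 0 lymphocyte markers reached the minimum. In such bulk RNA, fewer cells of a type and less RNA per cell cannot be told apart.

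Ribosomal protein genes resembled the respiratory chain: 13 of 39 were called higher and 0 lower, at a median of 1.65, but 4 and 1 after centring, at 0.36. Rpl3l, a paralog of Rpl3 made in heart and skeletal muscle, stood apart. It rose from 4.22, 3.8 and 4.78 CPM to 138, 176 and 204 CPM, by 5.33 ± 0.23 (SE) on the log2 scale and 4.03 after centring (edgeR quasi-likelihood adjusted p = 5.91e-05). Rpl3 was at 362, 393 and 383 CPM and then 485, 603 and 503 CPM, and the log2 ratio of Rpl3l to Rpl3 moved from -6.47 ± 0.19 to -1.63 ± 0.29 (SD, n = 3 each). Rpl30, Rps27 and Rpl38 rose 9.63-fold, 8.69-fold and 7.83-fold, of which Rps27 and Rpl38 missed the rule after centring.

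Circadian clock and glucocorticoid target genes gave 7 higher calls and 0 lower among 22, and 4 and 0 after centring. Dbp, a clock-driven transcription factor, rose from 19.1, 18.7 and 15.2 CPM to 119, 313 and 296 CPM. Nr1d2, a repressor in the clock, rose from 97.8, 94.2 and 79.2 CPM to 739, 604 and 753 CPM. The hour of collection is not given in the labels. Mt2, a metallothionein, rose 8.40-fold and varied from 21.3 to 128 CPM among the 3M libraries. Ddit4, a stress-induced inhibitor of mTOR signalling, rose 6.65-fold, and both missed the rule after centring.

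Immediate early and dissociation genes, which respond within minutes to handling of tissue, were lower: 14 of 26 called lower and 1 higher, at a median of -2.32, and 15 and 0 after centring. Fosb fell from 524, 533 and 490 CPM to 6.25, 3.63 and 9.78 CPM, and Fos from 569, 592 and 612 CPM to 26.8, 13.5 and 12.9 CPM. The orphan receptors Nr4a2 and Nr4a3 fell 32.8-fold and 26.3-fold. Klf2, a factor of endothelium, was the higher one as counted, at 2.20, and was at 1.07 after centring. Among 20 splicing regulators, 2 were called: Tra2a was higher (78, 81.1 and 74.7 CPM against 612, 373 and 676 CPM) and Mbnl2, which sets adult splicing, lower (284, 273 and 263 CPM against 30.8, 43.5 and 22.4 CPM).

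The 10 largest rises held no sarcomere gene. Ly6a, a surface antigen of endothelium and progenitors, rose from 6.57, 6.57 and 6.81 CPM to 1327, 1239 and 747 CPM (log2 fold change 7.37 ± 0.30 (SE), edgeR quasi-likelihood adjusted p = 5.78e-05). Its relative Ly6c1 rose from 15.7, 12 and 12.8 CPM to 1635, 1720 and 1075 CPM. Art1, a muscle ADP-ribosyltransferase, rose from 2.97, 2.82 and 3.13 CPM to 221, 317 and 412 CPM. Alb, serum albumin, rose from 1.52, 1.47 and 2.74 CPM to 145, 96.4 and 344 CPM. Igip, Zfp979, Oas2, Psmb9, Tmem82 and Cbr2 completed them, with folds of 96.4, 82.4, 78.0, 72.2, 55.7 and 53.1.

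Of the 10 largest falls, 5 were RNAs of the kinds that differed between the sets throughout. These were Rpph1, the RNA of ribonuclease P, at 5068, 4733 and 4587 CPM against 3.3, 0.737 and 2.73 CPM, the small nucleolar RNA Snord15b and the histone genes H1f4, Hist1h2ap and H1f3, whose copies share reads. The others were Myl7, Nrk, Hymai, Hrnr and Eppk1. Nrk, a fetal and placental kinase, was at 88.3, 77.9 and 78.4 CPM in Ctrl and 0 in all 3M libraries, at least 1134-fold lower. Hymai, an imprinted RNA from the Plagl1 locus, was at least 1038-fold lower, Hrnr at least 720-fold and Eppk1 at least 609-fold. In the first set, chemoreceptor genes give a measure of reads not tied to expression, with a median of 0.509 to 0.573 CPM per kb of exon. Such reads came to more than 50% of the Ctrl level in 5 of the 940 genes called lower. Genes called lower passed the 20 CPM minimum through their Ctrl level, so this small count was largely set by that rule. Among the largest rises they came to 277% of the Ctrl level of Psmb9, 167% of Igip, 97.1% of Tmem82, 71.9% of Oas2, 68.9% of Alb, 68.3% of Cbr2 and 53% of Art1, so the size and order of these rises depend on them. For H2-Aa they came to 307%.

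The Chaf1a cko libraries, which were not in the control fit, gave the same contrast of tables. The gene lists were chosen with earlier results of these data known, so they are not independent of these libraries. Of 9105 genes at the minimum there, 1172 were called higher in Chaf1a cko 3M (12.9%) and 824 lower (9.05%). The 830 genes higher in both genotypes were 78.6% of the control calls and 70.8% of the Chaf1a cko calls. The 694 lower in both were 73.8% and 84.2%, and 1 gene was called in opposite directions. Since these libraries come from the same 2 tables, they repeat a difference between tables as well as one between stages. G2 and mitosis genes were called lower in 38 of 41 there, MHC and interferon genes higher in 17, and fatty acid genes higher in 12 with 0 lower. All 17 pairs that moved to late in controls did so in Chaf1a cko, where 21 moved to late and 3 to early. Of the early shifts named above, Fabp3 over Fabp5 met the rule there, at -1.11. Ryr2 over Itpr2, at -0.94, and Ldhb over Ldha, at -0.65, did not. Dmd over Utrn, of the dystrophin family, moved to early in Chaf1a cko, at -1.26, but overlapped in controls.

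A difference of the change between genotypes was rarely called. The interaction of set and genotype passed in 15 of 22803 genes by edgeR's quasi-likelihood test, 10 of them among the 9125. Slc2a4 over Slc2a1, the insulin-regulated over the basal glucose transporter, moved by 0.76 in controls, short of the rule, and by 2.79 in Chaf1a cko. That difference was not tested.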

How the data were processed

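Total RNA of mouse cardiomyocytes was sequenced in 12 libraries. The authors deposited raw gene counts, whole numbers per gene symbol, in 2 tables of 6 libraries, and CPM values were computed here from them. Per the labels' protocols, RNA was extracted with TRIzol and libraries were made with a stranded RiboErase kit, which removes ribosomal RNA. Per the submitters' processing notes, FastQC, Trimmomatic and HISAT2 were used with mm10. The counting program, annotation and use of strand: not given in the sources used here. Reads of overlapping antisense genes therefore cannot be told apart.

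Total counts were 15068468, 19047467 and 20896673 in Ctrl and 11262660, 16445963 and 12561947 in Ctrl 3M. Groups came from the sample titles. Columns of the 3M table carry numbers that no label holds, so they were placed by group only. The tables were joined by symbol, of which 99.6% matched RefSeq (GRCm38.p6) and 96.6% had a summed exon length in GENCODE (GRCm38). In R 4.3.3, edgeR 4.0.16 was run on the 6 control libraries: filterByExpr (minimum count 10, minimum total 15), TMM, robust glmQLFit and glmQLFTest, two-sided, with Benjamini-Hochberg adjustment over 21286 genes. On data simulated for this comparison with 200 of the 21286 genes changed 8-fold, 98.5% were called in the right direction, with 0 false calls. The simulation had the same dispersion in both groups, equal numbers of rises and falls, and no trend with exon length or background reads. Its 0 false calls therefore cannot be carried over to these data. CPM used TMM-scaled library sizes, except sums over lists and RNA classes, Xist and the Y-linked genes, which are relative to the library total. Pair ratios used 0.5 added to each count. No replicate pair agreed within sampling noise. Across genes, log2 levels correlated (Pearson) at 0.977 to 0.979 within Ctrl, 0.886 to 0.913 within Ctrl 3M and 0.368 to 0.427 between them, and genes are not independent replicates.

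The members and the 29 gene lists (696 genes, 688 in the tables) were chosen with earlier results of these data known. Genes were named by a rule: the 10 largest rises and falls without predicted loci, globins or sex-linked check genes, up to 4 called members of each list (the 2 most abundant where fewer than 2 were called), and members of the isoform pairs. Others are named as chosen after their values were seen or given with their list. Alternatives were other scalings, DESeq2 1.42.0, limma 3.58.1 voom with group weights, glmTreat, no filter, a 100 CPM minimum, all 12 libraries, background subtraction, each replicate left out and centring by exon length. Intervals and floors cover counting error only. A few listed genes and a pair are counted with their lists but not reported here by name.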

Additional observations from a re-analysis of the deposited data

Results flagged for a closer look

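The change from the first set to 3M differed between controls and Chaf1a cko in 9 genes at the CPM minimum, besides a Y-linked gene, by the interaction of set and genotype in edgeR's quasi-likelihood test. The differences come from a fit of all 12 libraries and the fold changes from a separate fit of each genotype, so they do not subtract exactly. Apbb2, an adaptor of amyloid precursor protein, stood at a log2 fold change of -4.002 in controls and 0.25 in Chaf1a cko, a difference of 4.13 (edgeR quasi-likelihood adjusted p = 0.00259). Map2k4, a kinase upstream of JNK, stood at -2.86 and -0.49, a difference of 2.25 (edgeR quasi-likelihood adjusted p = 0.012). The other 7 shared an edgeR quasi-likelihood adjusted p of 0.0487. Suco stood at -3.36 and -0.31, differing by 2.93. Pard6b differed by 4.23, Coq8a by 1.65, Psme4 by 1.11 and Slc38a10 by -2.14. Dusp4 and Fam83d were at 0 in all 3M controls, so their fitted differences of 6.53 and 7.94 depend on the prior count.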

How the results depend on the processing

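Counts of calls kept within 1.5 times of their values under DESeq2 size factors, library size alone, the DESeq2 Wald test, voom, no filter, all 12 libraries and background subtraction. A minimum of 100 CPM gave 738 calls (459 higher, 279 lower) in controls and 752 (510 higher, 242 lower) in Chaf1a cko, where fewer genes could be called. Testing against a 4-fold change (glmTreat) gave 1286, of which 612 were higher. Centring by exon length gave 620 higher calls in controls and 703 in Chaf1a cko. That step and the left-out Chaf1a cko libraries were chosen after seeing the data. With each replicate left out, controls gave 1945 to 2135 calls (1029 to 1176 higher, 880 to 959 lower) and Chaf1a cko 1964 to 2059 (1104 to 1181 higher, 813 to 883 lower), and pairs 16 to 17 to late and 4 to 6 to early. A minimum shift of 2 left 1 pair to early. Reversed were Wt1, a marker of epicardium that was not called, at 0.73 in controls, -1.02 in Chaf1a cko and -0.19 with all 12 libraries, and Pfkm over Pfkp, at -0.21 after centring. Of the named genes, 14 lost the call after centring and 13 under glmTreat, and without 3M library a Chaf1a (-1.81) and Acad8 (1.78) were among those that did. No paired analysis was possible because the 3M columns carry no replicate number of the labels, so the planned replicate block was not run.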

Other observations

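Neat1 and Malat1, neighbouring nuclear noncoding RNAs found in paraspeckles and in speckles, changed places between the sets. Neat1 was at 503 to 546 CPM of the library total in Ctrl and 13173 to 18470 CPM in Ctrl 3M, while Malat1 was at 29008 to 29825 CPM and 549 to 1174 CPM. The log2 ratio of Neat1 to Malat1 counts was -5.77, -5.88 and -5.82 in the Ctrl libraries and 3.49, 4.15 and 5.07 in 3M libraries a, b and c. In Chaf1a cko it was -6.03 to -5.95 in the first set and 3.49 to 4.92 in 3M. The ranges did not overlap in either genotype.

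Of 5 erythroid markers at the CPM minimum, 3 were called lower in the 3M controls and 0 higher. Alas2, the first enzyme of heme synthesis in red cells, was at 98.5, 96.6 and 94.5 CPM in Ctrl and 11.8, 6.24 and 13.2 CPM in Ctrl 3M. Slc4a1, the anion exchanger of the red cell membrane, was at 19, 17.1 and 24.3 CPM and 0.357, 0.227 and 0.607 CPM. The beta globin Hbb-bs was uneven: it stood at 38.4, 37.3 and 641 CPM in Ctrl and at 0.982, 5.16 and 0 CPM in Ctrl 3M, a log2 fold change of -6.79, whereas in Chaf1a cko the same contrast was 5.30. The difference missed the threshold (edgeR quasi-likelihood adjusted p = 0.294).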
